A study of Drosophila melanogaster with 2 samples.

Results

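Exonic summits outside promoters are peaks of the homeodomain protein Bsh whose highest point lies inside an annotated exon and more than 500 bp from every annotated transcription start site (TSS). They numbered 233 of the 7927 peaks in the set that the authors thresholded by IDR (irreproducible discovery rate, which scores how alike peaks rank in replicates), 2.94% (exact binomial 95% interval 2.58 to 3.34). Each was placed in 1 of 4 exon classes: 5′ UTR, 3′ UTR, coding exon, or other exon, which here means an exon of a non-coding transcript. The members were 91 summits in other exons, 84 in 3′ UTRs, 44 in 5′ UTRs and 14 in coding exons. They lay in exons of 216 genes, where a summit in exons of a pair of genes counts for both. In all, 882 IDR summits lay in an exon of some kind, and 649 of them (73.6%) were within 500 bp of a TSS and so belong to promoters.

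The study applied chromatin immunoprecipitation with sequencing (ChIP-seq) to whole *Drosophila melanogaster* embryos collected at 10 to 12 h. The embryos came from a transgenic line that stably expresses Bsh fused to GFP at its C-terminus, and, per the description in the labels, an antibody against GFP was used, although their antibody field names bsh. Both biological replicates belong to this 1 group, so the exon classes were compared with other locations and not with another genotype, tissue or age, and no test was made. The lists carry no read counts, so the depth is unknown, and the control was not analysed here. Each peak's signal value is a score from the authors' peak caller, and a whole embryo mixes all its tissues, so few cells with much bound protein and many cells with little cannot be told apart. Intervals treat summits as independent and cover counting error only.

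Bsh (brain-specific homeobox) is a transcription factor known for specifying neurons of the optic lobe. Homeodomains contact short AT-rich DNA, typically around a TAAT core, and regulatory DNA that binds such factors is mostly found in promoters, introns and intergenic sequence. Coding sequence is richer in G and C and is constrained by the protein it encodes. UTRs flank the coding sequence of an mRNA, and some exons of long non-coding RNAs (lncRNAs) lie in or beside the regulatory DNA of neighbouring genes.

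The following sequences show the DNA at members from each exon class, taken from the strongest on arms 2L, 3L, 3R and X with and without a homeodomain core within 50 bp of the summit. The strongest coding member, otp, is not on these arms and is not shown. Members with a homeodomain core were favoured, and UTR members without one, such as Raf and CG33307, are not shown. The lines therefore do not give the frequency of the core, which was near 38 of 233 members (16.3%). They were read on the plus strand of genome release 6 from NCBI RefSeq. Capitals mark the core, TAATTA or TAATTG, where TAATTG on the minus strand reads CAATTA, and in the last 3 lines, which hold no core in the window, the capital marks the summit base.
dos, 5′ UTR (chr3L:2590519-2590548): agatttttggatTAATTAttttttaaacat
CG5966, 5′ UTR (chrX:5989605-5989634): aagagagtagagTAATTGgagctattatct
CG7872, 3′ UTR (chrX:15579742-15579771): accatcctagaaCAATTAtacccctacctg
CG14440, 3′ UTR (chrX:6696654-6696683): cgcgatgctcagTAATTAttttaatattta
CG32428, coding exon (chr3L:20471104-20471133): aggcctgcgttcCAATTAtttgtgtggcag
lncRNA:CR43334, other exon (chr3L:640745-640774): ttaaacgacagtCAATTAaaaatttgtttg
lncRNA:CR43823, other exon (chr2L:3588491-3588520): atattaaatataTAATTAcatgctaagaaa
lncRNA:CR45940, other exon (chr3L:19033351-19033380): ttgatcatgaatCAATTAtactattgcttt
Pde1c, coding exon (chr2L:11816564-11816593): cgcagcgccatctgCcggctccgcagctgg
l(3)mbn, coding exon (chr3L:6124809-6124838): ggtacatttccggtTggtgtattcgctgtc
lncRNA:CR46035, other exon (chr3R:17704394-17704423): ttattgtttctgatCaagtcactcatcaaa

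The nearest base of the core was 4 bp from the summit in the lncRNA:CR43334 sequence, and those of the other members shown lay 16 to 44 bp away. The window from 50 bp before to 50 bp after the Pde1c summit held 69.3% G and C, while that of lncRNA:CR43823 held 17.8%.

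Within the IDR set, the exon classes differed widely in how densely they were occupied. Other exons held 82.9 summits per Mb of their own sequence outside promoters (exact Poisson 95% interval 66.8 to 102) and 5′ UTRs held 42.2 per Mb (30.7 to 56.6). The density was 12.4 per Mb (9.89 to 15.4) in 3′ UTRs and 0.799 per Mb (0.437 to 1.34) in coding exons. For comparison, promoters held 158 per Mb, introns 63.5 (61.4 to 65.7) and intergenic sequence 40.8 (38.7 to 42.9). The interval of other exons lay only just above that of introns, with bounds of 66.8 and 65.7. It counts summits as independent, although 4 of these members share 2 peak intervals and 5 lie in 1 gene, so the separation is not firm. The interval of 5′ UTRs overlapped that of intergenic sequence, and 3′ UTRs and coding exons lay below every other class.

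**Figure D1:**
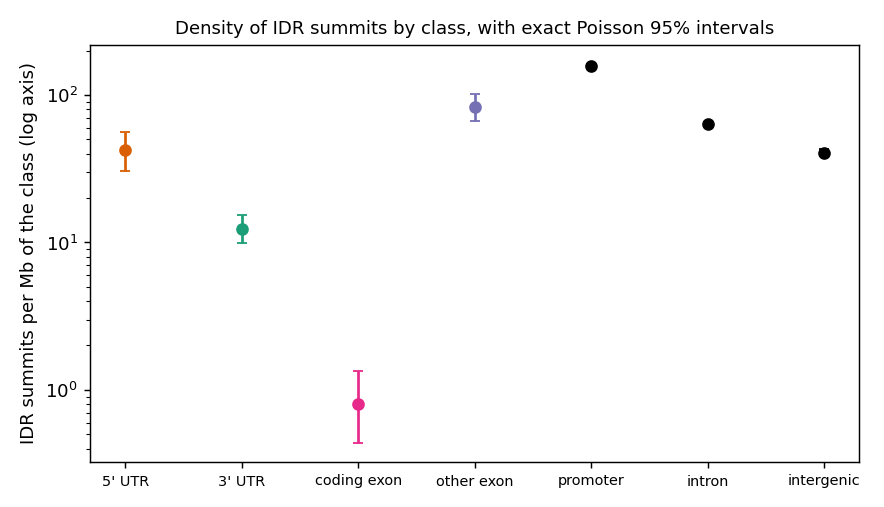
IDR summits per Mb of sequence of each class (log axis), over all arms but Y, with exact Poisson 95% intervals as bars. Coding exons lie at 0.799 per Mb and 3′ UTRs at 12.4, below 5′ UTRs at 42.2, other exons at 82.9, promoters at 158, introns at 63.5 and intergenic sequence at 40.8.

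Within the IDR set, the signal values of the classes overlapped widely. That set leaves out weak peaks, and the lowest value was between 152 and 162 in each exon class. Similar medians are thus partly set by that selection, and weaker peaks are not compared here. The median was 324 for other exons, 275.5 for coding exons, 256 for 3′ UTRs and 255 for 5′ UTRs, against 337 for promoters, 305 for introns, 296 for intergenic summits and 312 for all IDR peaks. The middle 50% of values ran from 213 to 641 in other exons, 190 to 402 in coding exons, 191 to 454 in 3′ UTRs and 185 to 421 in 5′ UTRs, against 206 to 552 in all IDR peaks. The 1000 strongest IDR peaks included 22 members, which is 9.44% of the members, against 12.6% of all IDR peaks. Of these 22, 12 lay in other exons, 5 in 3′ UTRs, 3 in 5′ UTRs and 2 in coding exons.

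**Figure D2:**
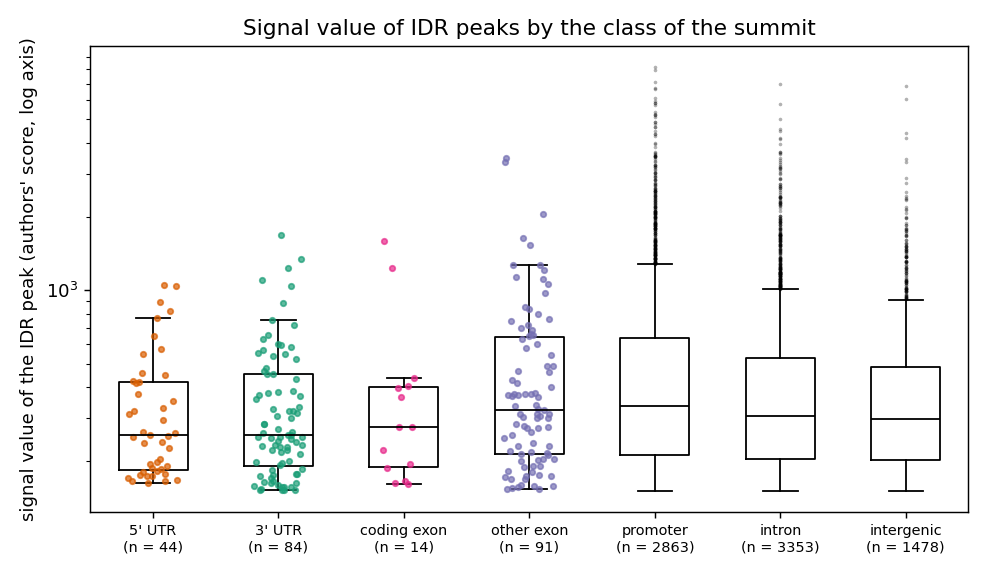
Signal value of each IDR peak (authors' score, log axis) by the class of its summit, with each exonic member as a point. Boxes span the quartiles with the median as a line, and whiskers reach 1.5 times the box height; the medians run from 255 in 5′ UTRs to 337 in promoters, and the boxes of all 7 classes overlap.

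Both replicates placed a peak at every member. All 233 (100%, exact binomial interval 98.4 to 100) overlapped a peak in each replicate list by at least 1 bp, against 99.3% of all IDR peaks. The IDR set was itself made from these lists by how alike they rank peaks. Overlap and high rank in both are thus largely set by that selection and are not separate support. A stricter count, being among the 7927 strongest peaks of both replicates, held for 193 members (82.8%, 77.4 to 87.4), against 84.2% of all IDR peaks. By class these were 80 of 91 in other exons, 66 of 84 in 3′ UTRs, 35 of 44 in 5′ UTRs and 12 of 14 in coding exons. Across members, the correlation of the log2 signal values of the replicates was 0.921 (Pearson) and 0.872 (Spearman; n = 233 peaks, all chosen as strong in the pooled replicates), close to 0.922 and 0.887 over the 7869 IDR peaks found in both. The same control file served both replicates.

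The exon class mostly held at the summits of the single replicates. The replicates' own summits of a member were a median of 19 bp apart, as for all IDR peaks, and 204 members (87.6%) had them within 50 bp, against 85.0% of all IDR peaks. The summits of both replicates fell in the same exon class for 208 of 233 members: 80 of 91 in other exons, 76 of 84 in 3′ UTRs, 39 of 44 in 5′ UTRs and 13 of 14 in coding exons. Taken from each replicate's own 7927 strongest peaks, coding exons held 14 summits in replicate 1 and 17 in replicate 2, and all exon classes together held 223 and 229. In all, 7 members ranked below 10000 in at least 1 replicate, the most uneven being a 5′ UTR member of spen, named here after its values were seen, at rank 10108 in replicate 1 and 26025 in replicate 2.

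**Figure D3:**
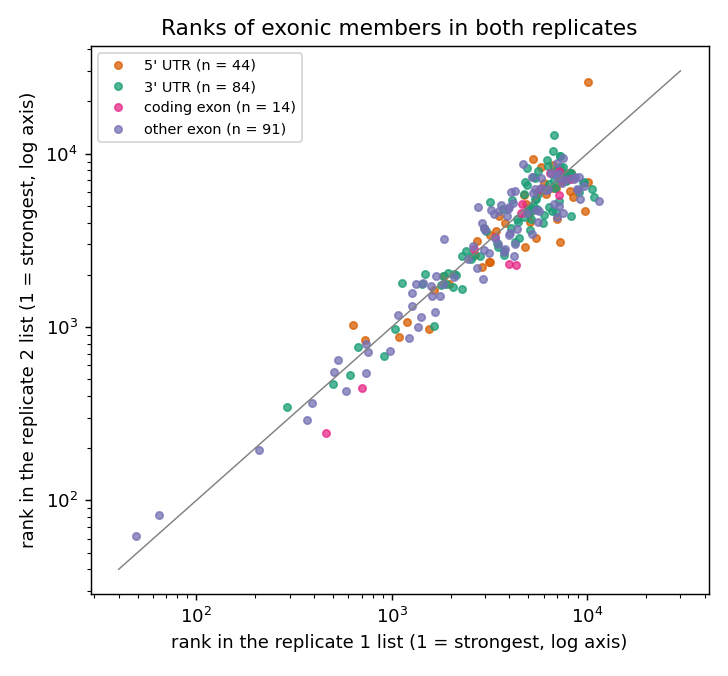
Rank of each exonic member in the replicate 1 list (x, log axis) and the replicate 2 list (y, log axis), where 1 is the strongest peak, coloured by exon class, with a grey line at equal ranks. The points follow the line over the whole range, and the spen member, at 10108 and 26025, stands furthest out on the replicate 2 axis.

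Coding exons held the fewest members, 14 in the class order used. Of the UTR members, 3 are coding in another transcript, Uba1 among them. Classing coding exons before UTRs gave 17 coding summits. All 14 members of the class as used are described here. The strongest summit was in the last exon of otp (orthopedia), a homeodomain factor of neurons and hindgut, with a signal value of 1584 and ranks of 458 and 243 in replicates 1 and 2. It was followed by Pde1c, which encodes a cyclic nucleotide phosphodiesterase, with 1234 and ranks of 705 and 442. These were the only coding members among the 1000 strongest IDR peaks, and the other 12 had signal values from 162 to 436.

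The next values were 436 at CG32428, 404 at CG14764 and 396 at l(3)mbn. The member at klar, which encodes a protein of the outer nuclear membrane that positions nuclei, had 366. Ubr1, a ubiquitin ligase that reads the N-terminal residue of its substrates, had 276, and HisRS, the tRNA synthetase for histidine, had 275. Tim17b1, a subunit of mitochondrial protein import, had 222, and Tsp42Ee, a tetraspanin of cell membranes, had 194. The last 4 were su(w[a]), a regulator of splicing, at 188, sgg, the fly GSK3 kinase, at 167, wb, a laminin alpha chain, at 162, and bun, a TSC22-family factor, at 162. The lowest ranks were 8239 in replicate 1, at bun, and 7930 in replicate 2, at wb.

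Coding members lay in sequence of varied GC content, in exons of widely differing length. The sequence from 50 bp before to 50 bp after the summit had a median GC content of 55.4%, close to the 53.4% of all coding bases outside promoters. It ran from 34.7% at CG32428 and su(w[a]) to 69.3% at Pde1c, with 63.4% at otp and 67.3% at Ubr1. Their exons had a median length of 373 bp, with 6 of 14 over 1000 bp and the longest, in Pde1c, at 2551 bp, and the summit lay a median of 123 bp from the nearest exon edge. The peak interval was wholly exonic in 4 of 14, namely Ubr1, su(w[a]), sgg and wb. It was least exonic at Tsp42Ee (22.3%), l(3)mbn (44.9%) and CG32428 (49.6%). At CG32428 the summit lay at the very edge of the exon, and the replicate 2 summit fell in an intron. The host gene had the position as an exon in every one of its transcripts for 7 of the 14 members, and the position was in an exon of 1 of 10 transcripts of bun.

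The 84 members in 3′ UTRs included 5 of the 1000 strongest IDR peaks. The strongest lay where opposite-strand 3′ UTRs of Cals, encoding the neuronal cadherin-like protein calsyntenin, and sv (shaven), a Pax-family transcription factor, overlap. It had a signal value of 1686 and ranks of 291 and 344 in replicates 1 and 2. CG7872 followed with 1337 (500 and 470), CG33307 with 1228 (608 and 529) and scf, which encodes a calcium-binding protein, with 1098 (673 and 768).

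APC7, a subunit of the ubiquitin ligase that drives cells out of mitosis, had 1042 (907 and 678), which completes these 5. All 5 were also among the 1000 strongest of each replicate. The next were CG5984 with 890, Uck, a uridine-cytidine kinase, with 755, and stas with 721. The lowest was CG5742 with 152. The Cals and sv member was on chromosome 4, the only exonic member there, and APC7 was 578 bp from the TSS of another gene.

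As the class implies, the summit was in the last exon for 83 of the 84 members. It was a median of 169 bp from the transcript end, within 100 bp of it for 32 members and over 500 bp from it for 25. The median distance to the nearest TSS was 1637.5 bp, and 14 members lay at most 1000 bp from one. The downstream protein-coding neighbour pointed towards the host, tail to tail, for 50 of 84 members (59.5%, 48.3 to 70.1), against 54.8% of 13940 protein-coding genes. The neighbour was tail to tail and within 1 kb for 32 (38.1%, 27.7 to 49.3), against 41.9%. Neither share stood outside the counting error of the members.

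On the X chromosome 3′ UTRs were more densely occupied than on autosomes, with intervals that only just did not overlap. The X held 31 of the 84 members (36.9%, 26.6 to 48.1), against 19.4% of all IDR peaks. That is 20.05 summits per Mb of 3′ UTR on the X (13.6 to 28.5), against 10.1 on autosomes (7.596 to 13.3). These intervals count summits as independent, although 2 of the X members lie in the 3′ UTR of elav. Several classes were also compared, so the separation is not firm. Introns also had a higher density on the X, 81.1 per Mb (75.7 to 86.9), against 59.3 on autosomes, whereas promoters had 156 and 158. Other exons had 96.7 per Mb on the X and 80.5 on autosomes, and 5′ UTRs had 26.2 and 46.7, each pair with overlapping intervals.

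The 44 members in 5′ UTRs were mostly a short way beyond the promoter limit. The strongest was in exon 2 of Raf, the kinase that relays signals from Ras to the MAP kinase cascade, with a signal value of 1050 and ranks of 630 and 1020 in replicates 1 and 2. Fbl6, which encodes an F-box protein, had 1043 (731 and 841), and cic (capicua), a repressor acting downstream of the same kinase cascade, had 893 (1089 and 880). CG15247 had 822 (1192 and 1066).

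CAP, an adaptor protein of muscle attachment sites, had 773 (1558 and 967) and a second 5′ UTR member at 451. Mef2, the muscle differentiation factor, had 652 (1636 and 1638). Then came eas, an ethanolamine kinase, with 575, and dos, an adaptor of receptor tyrosine kinase signalling, with 546. The lowest was Uba1, the ubiquitin-activating enzyme, with 162 and ranks of 10136 and 6874.

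The median distance from a 5′ UTR member to the nearest TSS was 826.5 bp, and 31 of 44 lay at most 1000 bp from it. For 41 of 44 the nearest TSS belonged to the host gene. The summit was in the first exon of the transcript for 25 members. The position was exonic in every transcript of the host for 8 of 44, against 37 of 84 in 3′ UTRs, 7 of 14 in coding exons and 71 of 91 in other exons. A host with 1 transcript meets this count by definition. Among members whose host had more than 1 transcript, it held for 6 of 42 in 5′ UTRs and 22 of 69 in 3′ UTRs. In coding exons it then held for 6 of 13, and in other exons for 16 of 36. The peak interval reached into a promoter window for 15 of 44 members, and for 43 of all 233.

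Other exons held the strongest members and the most of them. Of the 91, 87 were in lncRNAs and 4 in antisense RNAs, from 76 genes. The strongest was lncRNA:CR46035, inside an intron of osa, which encodes a subunit of a Brahma chromatin remodelling complex, with a signal value of 3459 and ranks of 49 and 62 in replicates 1 and 2. lncRNA:Vinr had 3351 (64 and 82). These 2 were the only exonic members among the 200 strongest IDR peaks.

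The 8 strongest also included 3 summits in lncRNA:CR43334, at 2047, 1628 and 1211. lncRNA:CR45166 had 1525 (392 and 365), 502 bp from the TSS of CG9184. lncRNA:CR42719 had 1271, and lncRNA:CR44365 had 1265, with 1112 at another summit in the same peak interval and 159 at 1 more. The replicate 2 summits of lncRNA:Vinr and lncRNA:CR45166 fell in promoters, and that of lncRNA:CR42719 in intergenic sequence. Their class is thus less sure. The lowest other exon member was lncRNA:CR43909 with 154. In all, 4 members shared 2 peak intervals, those of lncRNA:CR44365 and lncRNA:CR44831, so they are not separate regions.

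The other exon members lay at varied distances from coding genes. The transcript had a single exon for 56 of 91 members, and the exons had a median length of 2088 bp, against 1652.5 bp in 3′ UTRs, 1065.5 bp in 5′ UTRs and 373 bp in coding exons. The summit was inside an intron of a protein-coding gene for 30 members, with a median signal value of 307, and outside every coding gene span for 61, with 327. The nearest coding TSS was within 1 kb for 10 members and beyond 5 kb for 39. The host lncRNAs and antisense RNAs had a median span of 2480 bp, against 720 bp for all such genes; since a summit over 500 bp from every TSS cannot fall in a gene shorter than that, the rule itself favours long hosts.

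Some of these hosts contained a microRNA gene, a group picked out after the values were seen. Of the 76 host genes, 10 (13.2%, 6.49 to 22.9) had one on the same strand, against 37 of 2447 lncRNA and antisense RNA genes (1.51%, 1.07 to 2.08). Among genes spanning at least 2000 bp the counts were 10 of 41 (24.4%, 12.4 to 40.3) and 34 of 332 (10.2%, 7.20 to 14.02). With length taken into account in this way the intervals overlapped. The 10 hosts carried 18 members.

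The host with the most members was lncRNA:CR43334, which contains mir-ban (bantam), a microRNA that promotes growth and blocks cell death. The gene is on the plus strand of chr3L:628435-643900, 15466 bp long, and holds 5 members and a sixth IDR summit. In order along the transcript, the members lay 1837, 5329, 6418, 8189 and 12318 bp from its 5′ end. Their signal values were 312, 1628, 2047, 837 and 1211 in that order, with the strongest in the middle.

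Both replicates ranked these 5 alike. The ranks in replicates 1 and 2 were 209 and 195 for the strongest, 370 and 291, 529 and 647, and 1072 and 1166 for the next, and 4360 and 3650 for the weakest. The sixth summit, with 464, lay 14227 bp from the 5′ end and 403 bp from an annotated non-coding start, so it counted as a promoter. The mir-ban hairpin starts 13773 bp from the 5′ end, downstream of all 5 members.

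**Figure D4:**
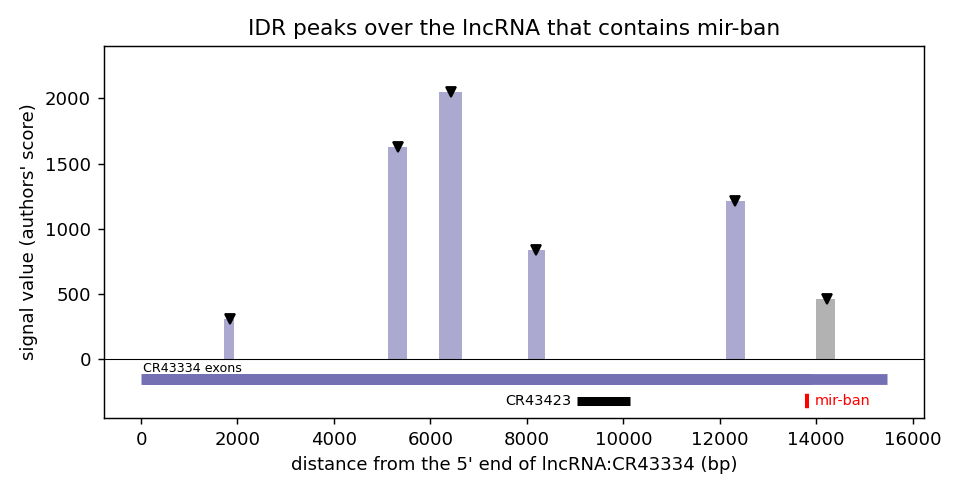
IDR peaks over lncRNA:CR43334, with distance from its 5′ end in bp on the x axis and signal value (authors' score) on the y axis. Bars span the peak intervals and triangles mark the summits, purple for the 5 members and grey for the promoter summit at 14227 bp; the strips beneath show the lncRNA exons, the mir-ban hairpin and the antisense lncRNA:CR43423.

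The other microRNA hosts had members with signal values from 154 to 720.0. lncRNA:CR43650, which contains mir-8, had 3 members at 377, 181 and 173. lncRNA:CR31044, with mir-279 and mir-996, had members at 299.8 and 212, and lncRNA:CR46006, with mir-276a, at 203 and 154. The single members were at lncRNA:CR45911 (mir-13b-1, mir-13a and mir-2c) with 720.0, lncRNA:Hsromega (mir-4951) with 489.7, lncRNA:CR45345 (mir-375) with 375, lncRNA:CR43459 (mir-34 and mir-277) with 273, lncRNA:CR46004 (mir-276b) with 159 and lncRNA:CR43626 (mir-282) with 156. Hsromega is the heat-shock lncRNA that organises nuclear speckles.

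Other genes with several members were few. lncRNA:CR44603, asRNA:CR44018, lncRNA:CR45531 and lncRNA:CR43126 had 2 members each, between 303 and 418. CG5966 had a 5′ UTR member at 421 and a 3′ UTR member at 165, and eas had 575 and 255 in the same order. The 3′ UTR member of bun, at 153, joined its coding member. elav, the neuronal RNA-binding protein, had 2 members in its long 3′ UTR, at 261 and 242.

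Few genes of any kind had an exonic member, 141 of 13968 protein-coding genes (1.01%), and 15.6% of these genes had an IDR summit anywhere in their span. The 9 gene lists are read beside those shares, and some hold long genes, which offer more sequence. Of 71 homeodomain and Pax genes, 3 had one, namely sv and otp and also Lim3, a LIM-homeodomain factor of motor neurons, in its 3′ UTR at 196. In the same list 27 genes had an IDR summit anywhere in the gene and 25 had one in an intron. Of 54 axon guidance and adhesion genes, 2 had an exonic member in a 3′ UTR, the guidance cue NetB at 597 and the adhesion protein rst at 264, while 32 had any summit and 28 an intronic one. Of 29 genes in the list of synaptic and excitability genes, 1 had exonic members and 5 had any summit. That 1 was elav, which encodes a neuronal RNA-binding protein.

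Mef2 was the 1 of 26 muscle genes, of which 10 had any summit, and Rbp9, an RNA-binding protein related to elav, at 178 the 1 of 36 RNA-binding and translation genes, of which 26 had any. None of the listed 42 neural zinc finger, HMG and bHLH factors, 24 Notch pathway genes, 42 genes of Wnt, Hedgehog, BMP and EGF signalling and 39 chromatin regulators had an exonic member. The lists are partial: sgg, which acts in Wnt signalling, and Raf, cic and dos, which act downstream of receptor tyrosine kinases, were members but are in no list. In those lists 16, 9, 27 and 18 genes had an IDR summit elsewhere in their span, in that order.

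GC content followed the exon class. The median over the 50 bp on each side of the summit was 55.4% at coding members, 40.6% at 5′ UTR members, 32.7% at 3′ UTR members and 29.7% at other exon members, against 30.7% at promoters, 29.7% at introns and 30.7% over all IDR peaks. Summits were less GC-rich than their class as a whole in 5′ UTRs (class 45.7%), 3′ UTRs (37.6%) and other exons (41.4%). In coding exons the summits, at 55.4%, were above the 53.4% of the class, but over 100 bp on each side they were below it, at 48.0%.

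A homeodomain core was found near members of every exon class, in shares that could not be told apart at these counts. TAATTA or TAATTG, in either orientation and at most 50 bp from the summit, was present at 38 of 233 members (16.3%, 11.8 to 21.7), against 20.5% of all IDR peaks. The counts were 20 of 91 in other exons (22.0%, 13.97 to 31.9), 7 of 44 in 5′ UTRs (15.9%, 6.64 to 30.1), 10 of 84 in 3′ UTRs (11.9%, 5.86 to 20.8) and 1 of 14 in coding exons, at CG32428. The intervals of these classes overlapped each other and that of all IDR peaks. Members with a core had a median GC of 29.7%, and those without had 34.7%.

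Taken singly, TAATTA was near 12 members (5.15%, 2.69 to 8.82), against 11% of all IDR peaks, and its interval lay below that share. TAATTG was near 26 (11.2%, 7.42 to 15.9), against 10.9%. The shorter core TAAT, which both contain, was near 174 members (74.7%, 68.6 to 80.1), against 80.2%, with 77 of 91 in other exons and 7 of 14 in coding exons.

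Of the motifs of other factors, GAGAG was the most frequent. It is bound by GAGA factor and was near 27 members (11.6%, 7.78 to 16.4), against 8.55%, and 10 of these were among the 44 in 5′ UTRs (22.7%, 11.5 to 37.8). The E-box CAGCTG was near 12 members (5.15%, 2.69 to 8.82), against 2.51%, and TGACAG, the core of Homothorax-class factors, near 11 (4.72%, 2.38 to 8.29), against 2.7%. TATCGATA, a motif of housekeeping promoters, was near 0 of 233 members, which allows a share of up to 1.57% by the exact interval, against 0.946%. That share of all IDR peaks came mostly from promoters (2.31%), which the members exclude. It was 0.149% at introns and 0.271% in intergenic sequence, and the count cannot place the members below these.

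The remaining 8 motifs were rare throughout. TGANTCA was near 5 members, against 2.47% of all IDR peaks. AGATAAG was near 4, against 1.79%, ATGCAAAT near 4, against 1.85%, and ATCAAAG near 4, against 1.94%. CAGGTAG was near 1, against 0.328%. GGTCACAC, CACGTG and ACCGGTT were near none, against 0.593%, 0.568% and 0.177%. With 233 members these counts are too low to place any of the 8 above or below its share. A match here is a run of letters and not a site.

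The share of members with a neighbouring summit was smallest in 3′ UTRs, where its interval lay below the share of all IDR peaks. Another IDR summit lay within 1 kb of 41 members (17.6%, 12.9 to 23.1), against 21.2% of all IDR peaks. By class these were 20 of 91 in other exons, 8 of 84 in 3′ UTRs (9.52%, 4.20 to 17.9), 10 of 44 in 5′ UTRs and 3 of 14 in coding exons. The nearest other summit was in a promoter for 103 members, an intron for 70, intergenic sequence for 34 and another exon for the remaining 26.

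Coding summits were scarce among strong peaks and far more frequent among weak ones. In the list of pooled replicates, coding exons held 0.2% of the 1000 strongest peaks, 0.15% of ranks 1001 to 3000 and 0.183% of ranks 3001 to 7927, the last of the IDR set. Beyond it they held 0.580% of ranks 7928 to 15000 and 5.48% (5.12 to 5.86) of ranks 15001 to 30000, which is 822 summits. These shares do not allow for the length of each class. Coding exons outside promoters span 17.5 Mb, and promoters, which span 18.1 Mb, held 21% of that last bin. In the same 5 bins 3′ UTRs held 0.5%, 0.9%, 1.24%, 1.46% and 2.63%, and 5′ UTRs held 0.3%, 0.5%, 0.629%, 0.961% and 1.28%. Other exons stayed between 0.820% and 1.2%. The whole replicate lists, each of 30000 peaks, had coding shares of 3.25% in replicate 1 and 3.37% in replicate 2.

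**Figure D5:**
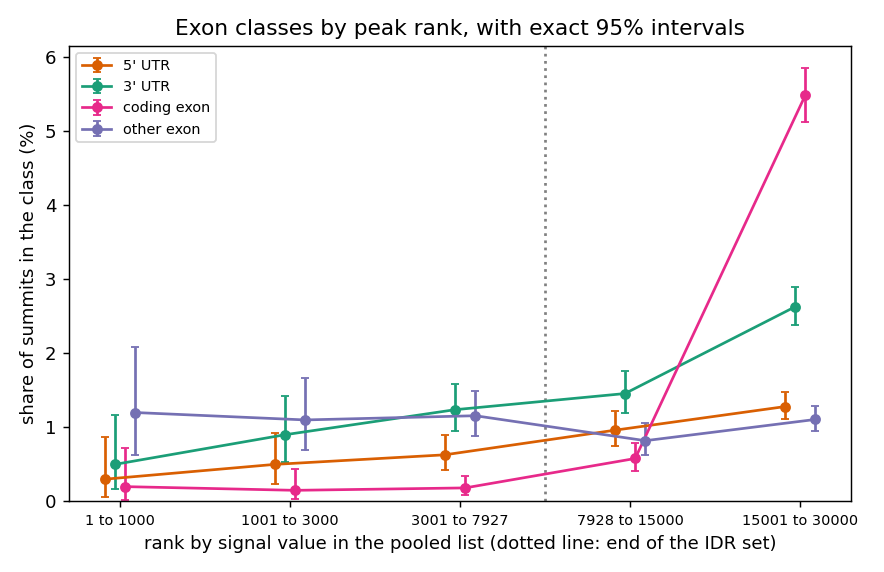
Share of summits in each exon class (%) by rank in the list of pooled replicates, in 5 bins from the strongest peaks on the left, with exact binomial 95% intervals as bars and a dotted line at the end of the IDR set. The coding share is 0.2% or less in the 3 bins of the IDR set and 5.48% in the last bin, while other exons stay near 1%.

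The limit of 500 bp cut through a continuous range of positions. The members nearest to it were Keap1 at 501 bp from a TSS (signal value 249.8), lncRNA:CR45166 at 502 bp (1525) and lncRNA:CR43932 at 505 bp (273). The exonic summits just short of it, which count as promoters, were fz at 500 bp (193), lncRNA:CR44619 at 499 bp (3840) and Pp2C1 at 494 bp (362). In all, 94 of the 233 members lay at most 1000 bp from a TSS.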

How the data were processed

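The labels give 2 biological replicates of 1 group; their age was read from the source name. The authors deposited 4 narrowPeak lists. The deposited text files say that peak calling ran separately for replicate 1, replicate 2 and both pooled, always against 1 control file, and that these lists gave the IDR set. Which aligner, peak caller and IDR threshold were used is not given in the sources used here. Each deposited signal value is a score, and the deposited −log10 q-value is 4.33 for every IDR peak. The deposited summit offset is another value, in bp from the peak start. Signal scales differ between lists, so replicates were compared by rank and by the correlation of log2 values. Depth is unknown.

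Summits were classed on genome release 6 with Ensembl release 115 models, as promoter first, then UTRs (5′ before 3′), coding and other exons, introns and intergenic sequence, transposable elements left out. The classing was tested on simulated data. Of 382 listed gene symbols, 19 were not matched. The genes named are the hosts of all coding members, of the 8 strongest and the lowest members of each other class, of members in the 9 lists, next to the 500 bp limit, and with at least 2 members. The members, lists, motifs and rule were chosen with earlier results of these data known. Python 3.11.15, numpy 2.4.6, pandas 2.3.3, scipy 1.17.1 and matplotlib 3.10.9 were used. Alternatives covered the TSS distance and set, transposable elements, class order, exon edge, peak number, replicate summits, overlap, ranking, and motif and GC windows.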

Additional observations from a re-analysis of the deposited data

How the results depend on the processing

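Of 92 alternatives, 65 stayed within the exact interval of the reported share or, for medians, within its quartiles. Promoters of 250 bp gave 0.971% of summits in 5′ UTRs, 1.63% in other exons and 4.05% in all exons, and promoters of 1000 bp gave 0.164%, 0.580% and 1.75%. With TSS of protein-coding genes only, other exons held 1.88% and all exons 3.75%. The 1000 strongest IDR peaks gave 0.3% in 5′ UTRs, 0.5% in 3′ UTRs and 2.2% in all exons. With an overlap of at least 50% of the IDR peak, 93.1% of members had a peak in both replicates. Windows of 100 bp either side gave 15.02% with TAATTA, 21.0% with TAATTG and 94.0% with TAAT. The shares given for all IDR peaks are for 50 bp, so these wider shares cannot be read against them. Whether the lower TAATTA share of members holds in the wider window was not tested.

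In the strongest 3000 peaks of replicates 1 and 2, 5′ UTRs held 0.367% and 0.4%, and all exons 2.43% and 2.5%. In the whole lists these were 0.953% and 1.04% for 5′ UTRs, 1.92% and 2.17% for 3′ UTRs, 3.25% and 3.37% for coding exons, and 7.17% and 7.62% for all exons. The causes of these shifts were not tested.

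With the summits of 1 replicate left out, shares ran from 0.557% to 0.570% in 5′ UTRs, 1.00% to 1.03% in 3′ UTRs, 1.10% to 1.15% in other exons and 2.84% to 2.93% in all exons, and 14 coding summits were found either way. TAATTA ran from 3.86% to 6.87%, TAATTG from 10.7% to 11.2% and TAAT from 73.4% to 75.5%. No paired analysis was possible because the study has 1 group. The number of coding members, 14, limits every share given for them.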
